A study of Rattus norvegicus with 6 samples.

Results

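A group of 10 genes that carry out or license inflammatory cell death was followed in the left ventricle of transplanted rat hearts, namely the inflammasome genes Nlrp3, Aim2, Nlrc4, Pycard, Casp1, Casp4 and Gsdmd and the necroptosis genes Ripk1, Ripk3 and Mlkl. They were listed by symbol, and all 10 were found among the 22250 rat genes of the table of read counts. RNA-Seq of polyadenylated RNA was performed on 3 young donor hearts (animals 3, 13 and 15, rats of 10 weeks) and 3 aged donor hearts (animals 3, 4 and 7, rats of 1 year). Donors of both groups were male Sprague-Dawley rats of WT genotype. Each heart was kept cold in University of Wisconsin (UW) solution, transplanted heterotopically into a young rat, and sampled as left ventricular (LV) myocardium on postoperative day 1. Donors and recipients were syngeneic, no immunosuppressant was given, and a heterotopic heart beats without its normal load. Animal numbers count within a group, so that young animal 3 and aged animal 3 are different rats. The question addressed was how donor age was related to the level of each gene on day 1.

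Inflammasomes are protein platforms of the innate immune system. A sensor such as NLRP3, AIM2 or NLRC4 detects a danger or microbial signal and, largely through the adaptor ASC (encoded by Pycard), activates caspase-1, which cuts the cytokine precursors of IL-1beta and IL-18 and frees the pore-forming part of gasdermin D. The lytic death that follows is called pyroptosis, and caspase-4 reaches gasdermin D without a platform when it binds bacterial lipopolysaccharide in the cytosol. In necroptosis, RIPK1 and RIPK3 assemble when caspase-8 is held back, and RIPK3 phosphorylates MLKL, which then breaks the plasma membrane. In the heart, both forms of death have been studied mainly in ischemia and reperfusion, and in leukocytes the inflammasome genes are strongly expressed. Activation of these proteins depends on cleavage, assembly and phosphorylation, which RNA levels do not measure.

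Depth was similar in all libraries, with 21457509 to 22277905 counted reads for young and 22508040 to 24560869 for aged donor hearts. Genes of the mitochondrial genome took 21.7%, 21.7% and 11.9% of the counts in young animals 3, 13 and 15 and 6.56% to 10.3% in aged donor hearts, and the TMM factors (trimmed mean of M values) ran from 0.733 to 1.24. Their part in the results was not tested beyond rescaling without these genes, which gave calls to the same 4 genes, and levels are given as CPM, the count scaled to library size with those factors. The groups were compared, aged against young, by the quasi-likelihood test of edgeR over 13784 genes, all 10 genes included. A gene was called higher or lower when the unadjusted p-value was under 0.05 and the fold change passed 1.5 or 0.67, the limits used by the study, and the Benjamini-Hochberg adjusted p-value over all tested genes is printed beside it. Young animal 15 stood apart from the other two young donor hearts. Its cardiomyocyte markers summed to 13059 CPM, against 95440 and 105636 CPM in young animals 3 and 13, and all 3 aged donor hearts were lower still, at 593, 7800 and 6203 CPM in animals 3, 4 and 7. Of the 11 markers, 5 were called lower (19.0% of all genes were), and 10 lay below all young donor hearts in every aged one (20.6% of all genes did). The defining markers of the labelled tissue were therefore at very unequal levels. In aged animal 3 their sum was below those of the macrophage (7122 CPM), fibroblast (2482 CPM), endothelial (1591 CPM) and neutrophil markers (1465 CPM), so the markers do not bear out the label there. Results are given with and without young animal 15. In bulk tissue, fewer cells of a type and less RNA per cell cannot be told apart.

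In aged donor hearts 4 of the 10 genes rose, namely Nlrc4, Nlrp3, Pycard and Ripk1. None fell. Of all genes tested, 13.2% were higher and 19.0% lower by the same limits. No gene in the whole table, and 0 of the 10, had an edgeR adjusted p-value under 0.05 (0% of genes), against 4731 genes and 4 of the 10 with an unadjusted p-value under 0.05. DESeq2 gave 3 of the 10 an adjusted p-value under 0.05 (Nlrc4, Nlrp3 and Ripk1, where 9.70% of genes were higher by that rule), and limma-voom with quality weights gave 8 (30.8% of genes). The log2 fold change was positive for 9 of the 10, with a median of 0.99, against 0.016 over all genes tested. In 4 genes (Nlrp3, Nlrc4, Ripk1 and Ripk3) each aged donor heart exceeded each young one, which held for 21.0% of genes, and in 0 genes did they all lie below, which held for 20.6% of genes. The highest aged value was in animal 3 for all 10 genes, and the highest young value was in animal 15 for 9 of them, Casp4 being the exception.

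**Figure D1:**
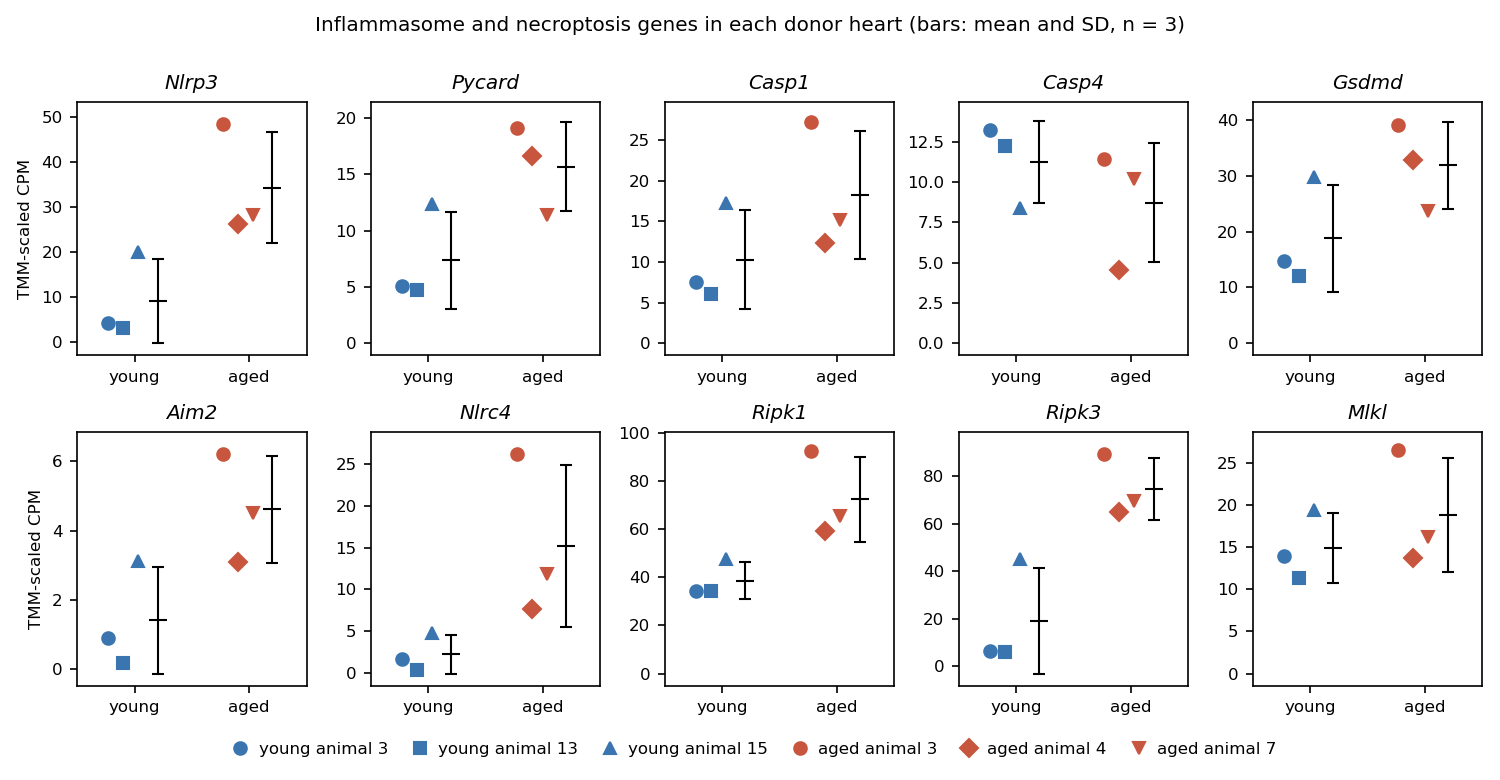
TMM-scaled CPM (vertical axis, linear, 1 scale per gene) of the 10 genes in each of the 3 young (blue) and 3 aged (red) donor hearts, 1 symbol per animal, with black bars for the mean and SD of each group. Young animal 15 (triangle) is the highest young donor heart in 9 of 10 panels and aged animal 3 the highest aged donor heart in all 10.

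Among the sensors, Nlrp3 and Nlrc4 rose and Aim2 did not pass the limits. Nlrp3, which responds to ion fluxes and membrane damage, was at 4.17, 3.18 and 19.9 CPM in young animals 3, 13 and 15 and at 48.4, 26.1 and 28.2 CPM in aged animals 3, 4 and 7. The groups did not overlap, but young animal 15 stood closer to aged animals 4 and 7 than to the other two young ones. The means were 9.09 ± 9.38 CPM for young and 34.2 ± 12.3 CPM for aged donor hearts (SD, n = 3 each), with a log2 fold change of 1.90 (SE 0.742, edgeR p = 0.0403, Benjamini-Hochberg adjusted p = 0.131, exact permutation p = 0.1). The permutation test was two-sided, and 0.1 is the smallest p that 3 hearts against 3 allow. When 1 heart was left out at a time, Nlrp3 passed the limits without young animal 15 and in none of the other 5 fits, with log2 fold changes from 1.501 to 3.25.

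Nlrc4, the sensor of bacterial flagellin and secretion systems that works with NAIP proteins, had the largest fold change of the 10 genes. It was at 1.63, 0.318 and 4.83 CPM in young animals 3, 13 and 15, the second of these being 5 reads, and at 26.1, 7.66 and 11.8 CPM in aged animals 3, 4 and 7. Every aged donor heart lay above every young one, and aged animal 3 was far above the other two. The log2 fold change was 2.72 (SE 0.931, edgeR p = 0.0246, Benjamini-Hochberg adjusted p = 0.109, exact permutation p = 0.1), and it remained past the limits in 4 of the 6 fits that leave out 1 heart, the exceptions being those without young animal 3 and without aged animal 3. Naip2, its partner, which was picked after its values were seen, had 16, 15 and 254 reads in young and 934, 418 and 358 reads in aged donor hearts, with a log2 fold change of 2.26 (SE 0.999, Benjamini-Hochberg adjusted p = 0.161 by edgeR).

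Aim2, a sensor of cytosolic DNA, was the least abundant of the 3 sensors by CPM in aged donor hearts. Its values were 0.907, 0.191 and 3.14 CPM in young animals 3, 13 and 15 (15, 3 and 76 reads) and 6.21, 3.11 and 4.52 CPM in aged animals 3, 4 and 7. Young animal 15 was slightly above aged animal 4, so the groups overlapped, and young animal 13 was at the floor of 3 reads. The log2 fold change of 1.67 (SE 0.858, edgeR p = 0.0960, Benjamini-Hochberg adjusted p = 0.205, exact permutation p = 0.2) did not pass the limits.

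Pycard, the adaptor that links a sensor to caspase-1, rose by less than Nlrp3 and Nlrc4 on the log2 scale. It was at 5.08, 4.71 and 12.4 CPM in young animals 3, 13 and 15 and at 19.1, 16.6 and 11.4 CPM in aged animals 3, 4 and 7. Young animal 15 lay above aged animal 7, and the other two young donor hearts lay below all aged ones. The means of 7.38 ± 4.31 and 15.7 ± 3.93 CPM (SD, n = 3 each) gave a log2 fold change of 1.08 (SE 0.445, edgeR p = 0.0486, Benjamini-Hochberg adjusted p = 0.143), and the exact permutation test gave p = 0.2. Pycard passed the limits in 2 of the 6 fits that leave out 1 heart, those without aged animal 7 and without young animal 15.

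The caspases gave no call. Casp1, which encodes the protease at the end of every canonical inflammasome, was at 7.56, 6.04 and 17.3 CPM in young animals 3, 13 and 15 and at 27.2, 12.4 and 15.2 CPM in aged animals 3, 4 and 7. Young animal 15 exceeded aged animals 4 and 7, and the log2 fold change was 0.82 (SE 0.498, edgeR p = 0.147, Benjamini-Hochberg adjusted p = 0.263, exact permutation p = 0.3). Casp4, the rat gene for the caspase that senses lipopolysaccharide directly, was at 13.2, 12.2 and 8.38 CPM in young and at 11.4, 4.51 and 10.2 CPM in aged donor hearts, in the same order of animals. It was the only one of the 10 whose mean was lower in aged donor hearts, at 8.70 ± 3.68 CPM against 11.3 ± 2.54 CPM (SD, n = 3 each), and the only one whose lowest young value was in animal 15. Its log2 fold change was -0.37 (SE 0.397, edgeR p = 0.385, Benjamini-Hochberg adjusted p = 0.516, exact permutation p = 0.5), the groups overlapped, and the sign turned to 0.14 with library totals in place of TMM, which moves the median of all genes to 0.46. The 2 genes lie close together on chromosome 8 (Casp1 at 2604962 to 2614631, Casp4 at 2635851 to 2651652, plus strand, Rnor_6.0), and as they are related caspases, reads that match both are uncertain.

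Gsdmd, which encodes the pore-forming protein gasdermin D, was at 14.6, 12.0 and 29.8 CPM in young animals 3, 13 and 15 and at 39.1, 32.9 and 23.6 CPM in aged animals 3, 4 and 7. Young animal 15 lay above aged animal 7, while young animals 3 and 13 lay below all aged donor hearts. The log2 fold change of 0.76 (SE 0.394, edgeR p = 0.0990, Benjamini-Hochberg adjusted p = 0.208, exact permutation p = 0.2) did not pass the limits.

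Of the necroptosis genes, Ripk1 rose. Ripk1, the kinase that relays tumor necrosis factor signals either to survival or to death, was at 34.2, 34.1 and 47.5 CPM in young animals 3, 13 and 15 and at 92.6, 59.1 and 65.6 CPM in aged animals 3, 4 and 7. The groups did not overlap, and young animal 15 differed less from its group than for any of the other genes that were highest in that heart. The means were 38.6 ± 7.68 and 72.4 ± 17.8 CPM (SD, n = 3 each), with a log2 fold change of 0.91 (SE 0.246, edgeR p = 0.00926, Benjamini-Hochberg adjusted p = 0.0920) and an exact permutation p of 0.1. Ripk1 was the only one of the 10 to pass the limits in all 6 fits that leave out 1 heart, with log2 fold changes from 0.70 to 1.12.

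Ripk3, the kinase that commits a cell to necroptosis, had a larger fold change and a larger spread. It was at 6.47, 6.10 and 45.0 CPM in young animals 3, 13 and 15 and at 89.4, 65.0 and 69.6 CPM in aged animals 3, 4 and 7. Young animal 15 was 7.16-fold above the mean of the other two young donor hearts, the widest such gap among the 10 genes, and yet below every aged donor heart. The log2 fold change was 1.95 (SE 0.815, edgeR p = 0.0509, Benjamini-Hochberg adjusted p = 0.147, exact permutation p = 0.1), just outside the limits, and without young animal 15 it was 3.61 and past them. Without any filter on low counts, with a filter of at least 10 counts in every heart, with DESeq2 and with limma-voom, the same gene passed the limits. It did not pass them with DESeq2 size factors, with TMM without mitochondrial genes or with library totals. Nor did it pass when any heart other than young animal 15 was left out.

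Mlkl, which encodes the protein that breaks the membrane, was nearly level between the groups. Its values were 13.9, 11.4 and 19.5 CPM in young animals 3, 13 and 15 and 26.6, 13.7 and 16.2 CPM in aged animals 3, 4 and 7. The ranges overlapped widely, and aged animal 4 was slightly below young animal 3. The log2 fold change was 0.33 (SE 0.337, edgeR p = 0.358, Benjamini-Hochberg adjusted p = 0.489, exact permutation p = 0.5), and in the fits that leave out 1 heart it ran from 0.0081 to 0.61.

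**Figure D2:**
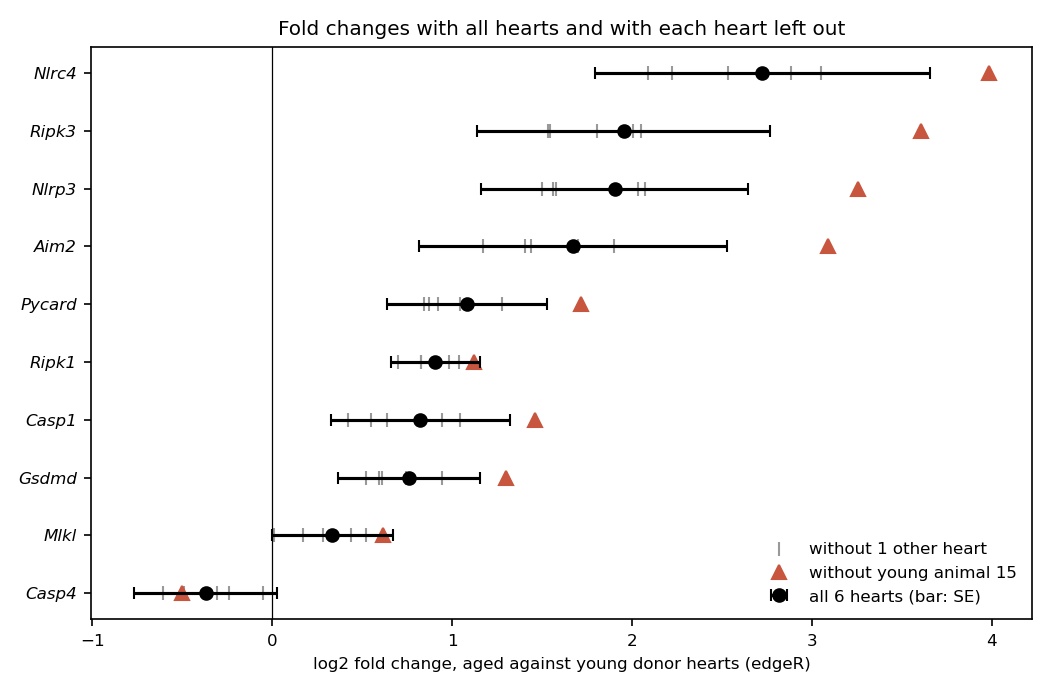
Log2 fold change, aged against young donor hearts (horizontal axis), from edgeR for each of the 10 genes with all 6 hearts (black point, bar: SE), without young animal 15 (red triangle) and without each of the other 5 hearts (gray ticks). Leaving out young animal 15 moved Ripk3 from 1.95 to 3.61 and Nlrp3 from 1.90 to 3.25, and Casp4 is the only gene to the left of 0.

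Within the young group, animal 15 stood apart from animals 3 and 13 to unlike degrees. The aged group was spread as well, with its highest value in animal 3 for all 10 genes. Young animal 15 was 5.72-fold above the mean of young animals 3 and 13 for Aim2, 5.41-fold for Nlrp3, 4.95-fold for Nlrc4, 2.54-fold for Casp1, 2.52-fold for Pycard, 2.24-fold for Gsdmd, 1.54-fold for Mlkl and 1.39-fold for Ripk1, and at 0.660 times that mean for Casp4. In 6 genes it exceeded the lowest aged donor heart. When it was left out, 8 of the 10 genes (all but Casp4 and Mlkl) passed the limits and had an edgeR adjusted p-value under 0.05, a rule that 25.7% of all genes tested in that fit met in the same direction. In the fits without each of the other hearts, between 1 and 3 of the 10 genes passed the limits, while the share of all genes called higher was 5.83% to 9.97%.

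Young animal 15 also had more RNA of the pan-leukocyte, neutrophil, macrophage and T and NK cell markers than the other two young donor hearts, and all 3 aged donor hearts had more still. Ptprc, the pan-leukocyte gene for CD45, was at 24.3, 23.5 and 141.1 CPM in young animals 3, 13 and 15 and at 409.5, 149.5 and 202.0 CPM in aged animals 3, 4 and 7. It was called higher, with a log2 fold change of 2.01 (Benjamini-Hochberg adjusted p = 0.144 by edgeR). When 1 heart was left out, Ptprc passed the limits only without young animal 15. Summed neutrophil markers were at 7.14 to 147.7 CPM in young and 339.1 to 1465 CPM in aged donor hearts, and 9 of the 10 tested rose. Summed macrophage markers ran from 366.0 to 2352 CPM in young and from 3697 to 7122 CPM in aged donor hearts, with 5 of 10 tested markers called higher. T and NK cell markers summed to 34.5 to 80.7 CPM in young and 94.1 to 149.4 CPM in aged donor hearts, with 1 of 7 tested markers called higher, and B cell markers to 0.991 to 3.12 and 0.986 to 6.90 CPM, with 0 of 3. No marker of these lists was at 0 in every heart. Endothelial markers summed to 1271 to 1871 CPM in young and 1101 to 1591 CPM in aged donor hearts, with 0 of 7 past the limits, and fibroblast markers to 2633 to 4492 and 1260 to 2482 CPM, with 1 of 6 lower. These marker counts stand beside 13.2% of all genes higher and 19.0% lower by the same limits. The part of leukocyte content in the results for the 10 genes was not tested.

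Set against Ptprc within each heart, the 10 genes fell into unlike patterns. Nlrp3 amounted to 17.2%, 13.5% and 14.1% of the Ptprc level in young animals 3, 13 and 15 and to 11.8%, 17.5% and 14.0% in aged animals 3, 4 and 7, a 1.48-fold range where the CPM themselves spanned a 15.2-fold range. Ripk3 was at 26.7%, 26.0% and 31.9% of Ptprc in the young group and 21.8%, 43.5% and 34.5% in the aged group, a 1.99-fold range against 14.6-fold in CPM. The range relative to Ptprc was narrower than in CPM for 4 of the 10 genes, the other two being Nlrc4 (4.98-fold against 82.2-fold) and Aim2 (4.61-fold against 32.5-fold), and wider for the remaining 6. Ptprc itself ran from 23.5 to 409.5 CPM, and dividing by it tends to widen a narrow range. The 4 genes spanned 14.6-fold or more in CPM and the 6 others 4.50-fold or less. The split thus follows the spread in CPM, and its share over all genes was not counted. Casp4 went from 54.4% and 51.9% of Ptprc in young animals 3 and 13 to 5.94% in young animal 15 and to 2.79%, 3.02% and 5.03% in aged animals 3, 4 and 7. Mlkl likewise went from 57.4% and 48.4% to 13.8% and then 6.49%, 9.18% and 8.03%. Relative to Ptprc, 3 genes (Casp1, Casp4 and Mlkl) were lower in every aged than in every young donor heart and 0 were higher in every one. Relative to the summed macrophage markers 7 genes, and relative to the summed neutrophil markers all 10, were lower in every aged donor heart. Ptprc and both sums were themselves higher in every aged than in every young donor heart, which alone lowers such ratios. The share of all genes with such lower ratios was not counted, so these counts are not a result about the 10 genes.

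**Figure D3:**
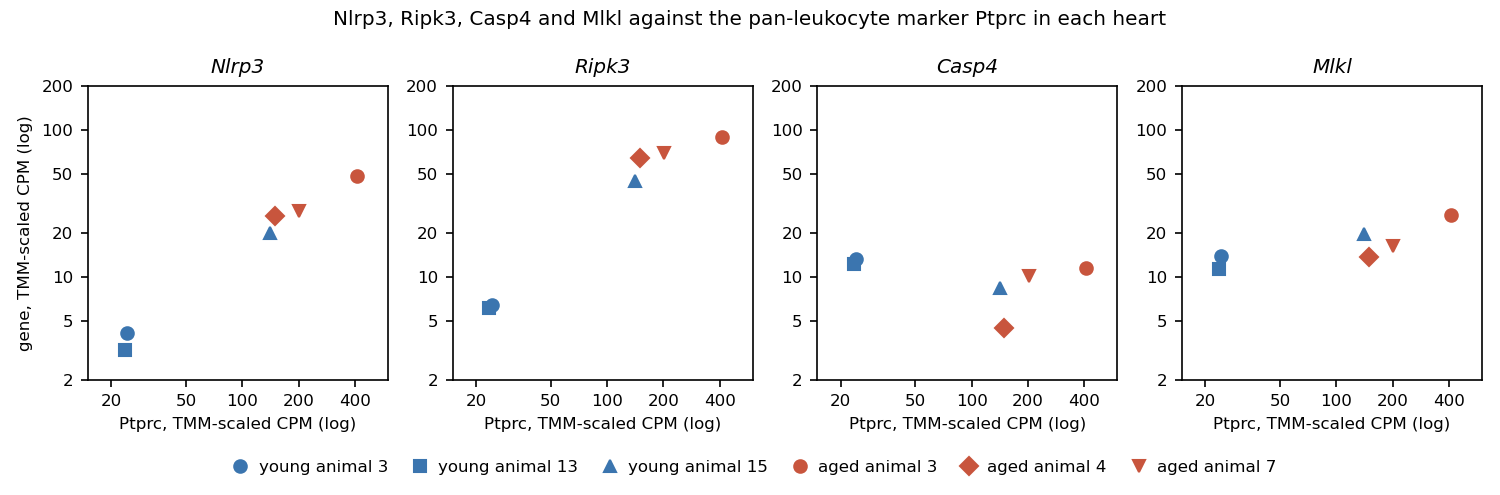
TMM-scaled CPM of Nlrp3, Ripk3, Casp4 and Mlkl (vertical axes, log) against that of Ptprc, the pan-leukocyte marker (horizontal axes, log), in each of the 3 young (blue) and 3 aged (red) donor hearts. Nlrp3 stays between 11.8% and 17.5% of Ptprc in all 6 hearts, whereas Casp4 stays between 4.51 and 13.2 CPM while Ptprc runs from 23.5 to 409.5 CPM.

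The balance between the genes was compared within each heart as ratios of counts per kilobase of gene length, after adding 2 counts to each gene, which do not depend on library scaling. Ripk3 per Ripk1 was 0.434, 0.411 and 2.14 in young animals 3, 13 and 15 and 2.18, 2.49 and 2.40 in aged animals 3, 4 and 7. In young animals 3 and 13 Ripk1 thus exceeded Ripk3, and in the other 4 hearts Ripk3 exceeded Ripk1. The aged-minus-young difference of the log2 ratio was 1.70, with a two-sided exact permutation p of 0.1 (0.25 after Benjamini-Hochberg adjustment over the 5 ratios examined). Mlkl per Ripk3 was 1.35, 1.17 and 0.275 in the young group and 0.189, 0.134 and 0.148 in the aged group, a log2 difference of -2.28 with the same exact permutation p of 0.1 and adjusted p of 0.25. In both ratios the groups did not overlap, and young animal 15 lay next to the aged donor hearts.

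The other 3 ratios overlapped between groups. Casp4 per Casp1 was 2.17, 2.50 and 0.610 in the young group and 0.528, 0.460 and 0.840 in the aged group, so that Casp4 exceeded Casp1 in young animals 3 and 13 only. Its log2 difference was -1.34, with a two-sided exact permutation p of 0.2. Nlrp3 per Pycard differed by 1.14 on the log2 scale with the same exact permutation p of 0.2, and both had an adjusted p of 0.25. Gsdmd per Casp1 ran from 1.35 to 1.54 in young and from 1.13 to 2.07 in aged donor hearts, with a log2 difference of -0.043 (exact permutation p = 1) whose sign turned without aged animal 3 and without aged animal 7.

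**Figure D4:**
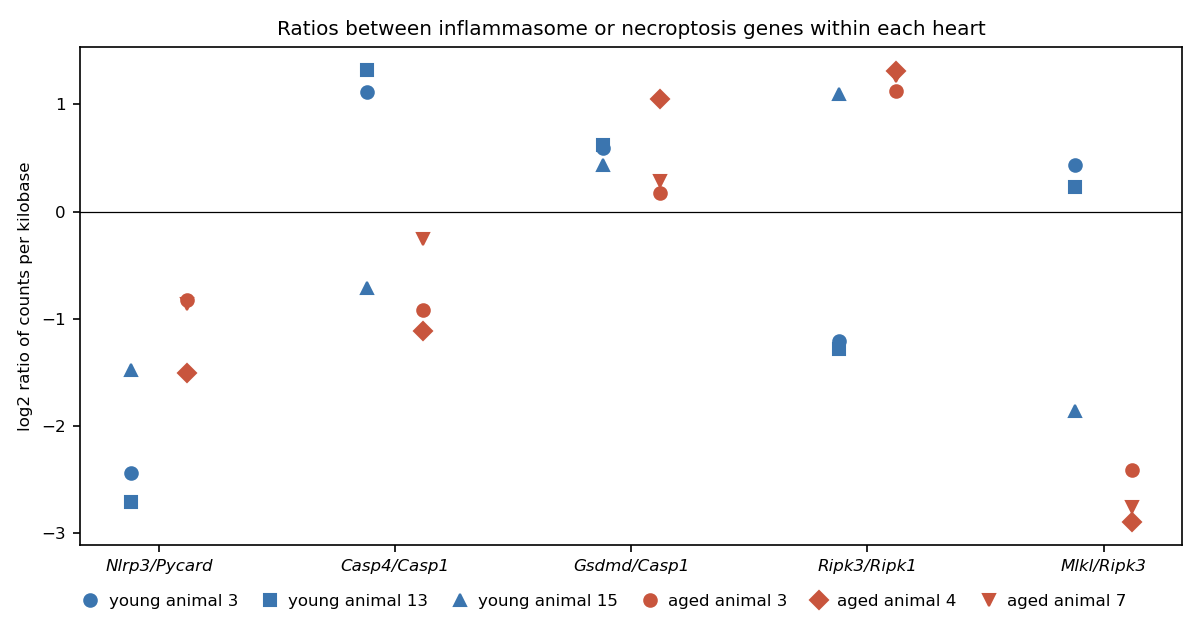
Log2 ratio of counts per kilobase for 5 gene pairs (vertical axis, 0 is equality) in each of the 3 young (blue) and 3 aged (red) donor hearts. For Ripk3/Ripk1 and Mlkl/Ripk3 the groups do not overlap and young animal 15 (triangle) sits nearest to the aged donor hearts.

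Per kilobase of gene length, the order of mean levels in young donor hearts was Gsdmd (9.64 CPM per kilobase), Ripk3 (9.59), Casp4 (9.21), Ripk1 (8.53), Pycard (7.96), Casp1 (6.73), Mlkl (4.72), Nlrp3 (2.19), Aim2 (1.32) and Nlrc4 (0.655). In aged donor hearts the order was Ripk3 (37.3 CPM per kilobase), Pycard (16.9), Gsdmd (16.4), Ripk1 (16.0), Casp1 (11.9), Nlrp3 (8.25), Casp4 (7.11), Mlkl (5.95), Nlrc4 (4.405) and Aim2 (4.31). Not all neighbours in these orders differed beyond their spread over hearts. In young donor hearts the neighbours from Gsdmd through Ripk3, Casp4 and Ripk1 to Pycard did not differ beyond it, nor did Casp1 and Mlkl. Ripk3 owed its place there to young animal 15, at 22.5 CPM per kilobase against 3.23 and 3.05 in animals 3 and 13, and without that heart its mean was 3.14, below that of Mlkl. In aged donor hearts the same held for Gsdmd and Ripk1, for Nlrp3 and Casp4, for Casp4 and Mlkl, and for Nlrc4 and Aim2, while Ripk3 stood clear at the top.

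**Figure D5:**
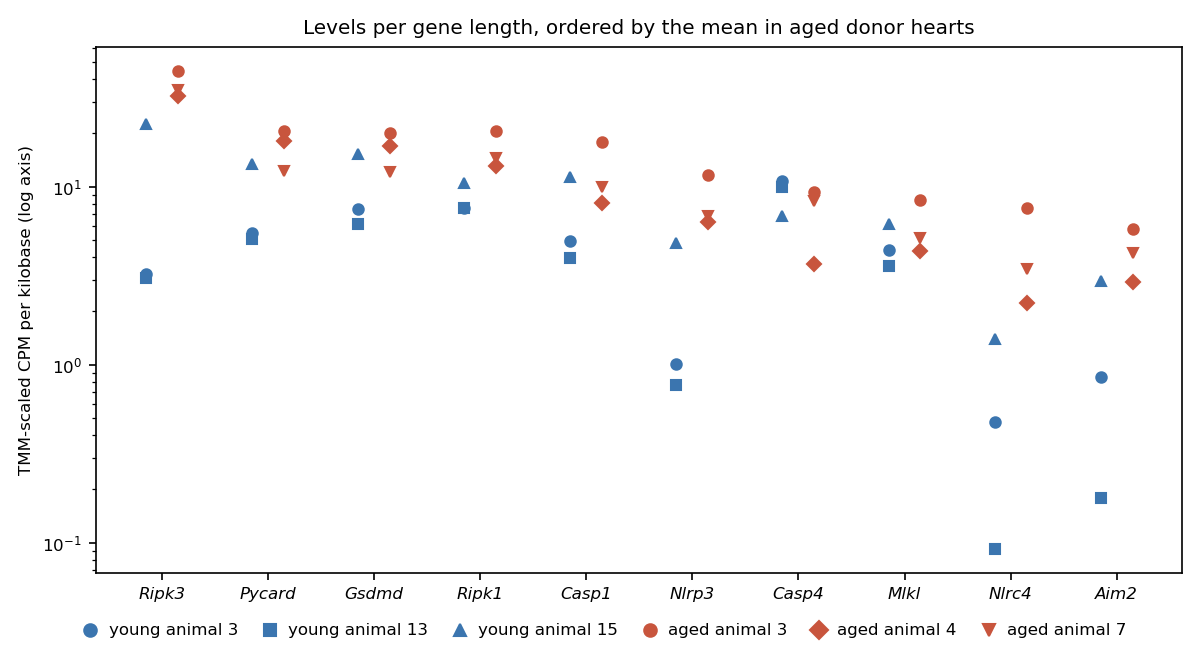
Level of each gene per kilobase of gene length (TMM-scaled CPM per kilobase, log axis) in each of the 3 young (blue) and 3 aged (red) donor hearts, ordered by the mean in aged donor hearts. Ripk3 has the highest mean among aged donor hearts, at 37.3 CPM per kilobase, and Casp4 is the only gene whose young mean, 9.21, exceeds its aged mean, 7.11.

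The sequence before the start is shown for Ripk1 and Ripk3, the kinase pair compared as a ratio above. It is the 250 bases upstream of each RefSeq gene start (GRCr8, chr17:31077168-31077417 for Ripk1 and chr15:33262026-33262275 for Ripk3, minus strand), written 5′ to 3′ along the gene. Capitals mark matches on either strand to the letters searched.
Ripk1: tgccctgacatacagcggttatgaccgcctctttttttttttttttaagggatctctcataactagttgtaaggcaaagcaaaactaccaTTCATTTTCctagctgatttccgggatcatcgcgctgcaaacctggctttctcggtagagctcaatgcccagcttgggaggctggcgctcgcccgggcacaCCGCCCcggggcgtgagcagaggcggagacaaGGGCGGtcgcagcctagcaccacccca
Ripk3: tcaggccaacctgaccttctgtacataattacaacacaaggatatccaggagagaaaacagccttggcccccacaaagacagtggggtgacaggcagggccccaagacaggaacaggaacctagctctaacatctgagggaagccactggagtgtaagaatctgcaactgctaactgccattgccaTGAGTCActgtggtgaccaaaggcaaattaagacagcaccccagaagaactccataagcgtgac
The Ripk1 window held the letters of an interferon-stimulated response element (GAAANNGAA, read on the other strand) at 160 bases before the start and the Sp1 letters GGGCGG at 59 and 27 bases before it. The Ripk3 window held the AP-1 letters TGANTCA at 64 bases before the start. These letters occurred in 8.12%, 30.5% and 6.34% of all 33469 rat windows of the same length, respectively. A RefSeq window was matched for 7 of the 10 genes, and Casp4, Gsdmd and Nlrc4 had no entry. Among those 7, the NF-kB letters GGGACTTTC (0.272% of all windows) were in Aim2, the STAT letters TTCNNNGAA (7.67%) in Nlrp3, the interferon letters also in Casp1, the Sp1 letters also in Pycard, Casp1 and Aim2, and TATAAA (12.9%) in 0. A match describes letters and not a bound site.

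The wider pathways were read from lists that hold none of the 10 genes. Among other inflammasome sensors and regulators, 3 of 13 tested rose (23.1%) and 1 fell (7.69%), against 13.2% and 19.0% of all genes. The median log2 fold change was 0.30. Nlrp12, a sensor expressed in myeloid cells, was at 0.242, 0.445 and 2.02 CPM in young and at 31.6, 5.61 and 13.03 CPM in aged donor hearts (log2 fold change 4.15, SE 0.992, Benjamini-Hochberg adjusted p = 0.0916 by edgeR). Every aged value was above every young one. Nod2, which senses bacterial peptidoglycan, and Mefv, which encodes pyrin, rose by log2 fold changes of 2.59 and 2.31. Nlrp12 and Mefv passed the limits in all 6 fits that leave out 1 heart, Nlrc3 in 5 and Nod2 in 3. Nlrc3, a brake on innate signaling, fell from 6.26 ± 2.31 to 2.74 ± 0.0256 CPM (SD, n = 3 each), and its log2 fold change was -1.19.

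Among the effectors, cytokines and inhibitors of pyroptosis, 4 of 8 tested rose and 1 fell, against 13.2% and 19.0% of all genes. Their median log2 fold change was 1.12. Il1b, which encodes the cytokine that caspase-1 matures, was at 1.94, 0.763 and 6.90 CPM in young and 62.5, 24.8 and 52.8 CPM in aged donor hearts, so that its log2 fold change was 3.84 (SE 0.840, Benjamini-Hochberg adjusted p = 0.0916 by edgeR). Its lowest aged value was well above its highest young value, that of animal 15. Serpinb1a, a protease inhibitor of neutrophil enzymes and inflammatory caspases, rose by 2.78, Il18, the other caspase-1 cytokine, by 2.54, and Ninj1, whose product ruptures the membrane of dying cells, by 1.31 on the log2 scale. Il18bp, which encodes the binding protein that neutralizes IL-18, fell. When 1 heart was left out, the list kept a lower call only without young animal 15 and without aged animal 3. Il1b and Ninj1 passed the limits in all 6 fits that leave out 1 heart, Serpinb1a in 5 and Il18 in 2.

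Of 12 tested ligands, receptors and adaptors upstream of necroptosis, 1 rose (8.33%) and 2 fell (16.7%), near the shares over all genes, with a median log2 fold change of 0.46. Tnfsf10, which encodes the death ligand TRAIL, fell from 58.3, 62.4 and 33.2 CPM in young to 8.05, 5.35 and 1.80 CPM in aged donor hearts, and its log2 fold change was -3.34 (SE 0.582, Benjamini-Hochberg adjusted p = 0.0916 by edgeR). Tlr3, the receptor for double-stranded RNA, fell with a log2 fold change of -0.77, and Tlr4, the receptor for lipopolysaccharide, rose by 1.11. Tlr3 and Tnfsf10 passed the limits in all 6 fits that leave out 1 heart and Tlr4 in 3.

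Of the 24 brakes and kinases around Ripk1, all tested, 5 rose (20.8%: Birc3, Tnfaip3, Otulin, Pgam5 and Ikbkb) and 4 fell (16.7%: Map3k7, Optn, Mapkapk2 and Ppm1b), against 13.2% and 19.0% of all genes, with a median of 0.18. Birc3, a ubiquitin ligase that keeps RIPK1 in its survival mode, was at 7.20, 4.77 and 10.9 CPM in young and 32.4, 21.8 and 36.9 CPM in aged donor hearts (log2 fold change 1.99, SE 0.371). Tnfaip3, which encodes the ubiquitin-editing brake A20, was at 11.9, 11.8 and 12.8 CPM in young and 51.1, 24.0 and 38.1 CPM in aged donor hearts (log2 fold change 1.63, SE 0.297). The 3 young donor hearts were close together for Tnfaip3, animal 15 included, whereas for Birc3 animal 15 was the highest of them. For both genes the groups did not overlap and the limits were passed in all 6 fits that leave out 1 heart. Optn, which encodes an adaptor that binds ubiquitin chains, fell with a log2 fold change of -1.35, passing in 2 of the 6 fits. Map3k7, which encodes the kinase TAK1, fell with a log2 fold change of -2.12, but its young values were 9.44, 1.78 and 1.49 CPM, and without young animal 3 the log2 fold change was -0.75. It passed the limits in 2 of the 6 fits, those without young animal 13 and without young animal 15.

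In the KEGG assignments of the table, which hold 6 of the 10 genes under necroptosis and 9 under NOD-like receptor signaling, 26 of 106 tested necroptosis genes rose (24.5%) and 19 fell, with a median log2 fold change of 0.28. Of 135 tested genes of NOD-like receptor signaling, 38 rose (28.1%) and 13 fell, with a median of 0.41. These counts describe the lists and stand beside the 13.2% higher and 19.0% lower over all genes.

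Likeness over the 6 hearts was measured as Pearson's r of log2 CPM among genes with a mean of at least 1 CPM, and it is a description, because the 6 points include the divided young group. The genes most like Nlrp3 were Pold3, Kif21b and Dclre1b, the lowest r of the 3 being 0.999. Those most like Gsdmd were Cd276, Slc10a7 and Rcn1, with r of 0.999, 0.998 and 0.998. Those most like Mlkl were Pggt1b, Xrcc5 and C1r, with r of 0.990, 0.983 and 0.983.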

How the data were processed

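RNA-Seq libraries of LV myocardium from 3 young and 3 aged donor hearts were used. The authors deposited, for each gene and heart, raw read counts without normalization and FPKM values, which are the count per gene length and per library total (checked on 133500 values, 1 off). The submitters' processing notes list HISAT2 2.0.5, StringTie 1.3.3b, featureCounts 1.5.0-p3, DESeq2 1.16.1, GATK 3.7 and Rnor_6.0, without roles. Strand use in counting is not given in the sources used here. None of the 10 genes overlaps another gene of the table.

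Counts were analyzed in R 4.3.3 with edgeR 4.0.16 (filterByExpr, TMM, quasi-likelihood test, no covariates), limma 3.58.1 and DESeq2 1.42.0. The limits on fold change and unadjusted p-value are those of the study. A two-sided exact permutation test was applied to log2 CPM (prior count 2). The edgeR, DESeq2 and limma-voom fits were tested on simulated counts with the same dispersion for every gene and no outlying heart, unlike these data. The other steps were not simulated. Depth differed little between libraries. The floor of 3 counts corresponds to 0.122 to 0.14 CPM when scaled by library totals without the TMM factors. With these factors, the 3 reads of Aim2 in young animal 13 were 0.191 CPM. The labels number the hearts as separate animals, and p-values measure the spread between these 6 hearts only.

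The 10 genes and all lists were chosen with earlier results of these data known. Named with values were the 10 genes, up to 4 genes past the limits per pathway list with the largest change and a mean of at least 1 CPM, and the 3 genes most like Nlrp3, Gsdmd and Mlkl. Naip2 and the leukocyte marker Ptprc were named beside this rule. Listed symbols not found in the table were Nlrp1b, Naip6, Dfna5, Ticam1, Ccr2, Klrb1a, Pecam1 and Col1a2. Endothelial, fibroblast and B cell markers were also listed. Alternatives were other scalings, filters and tools, and leaving out each heart. Sequences came from RefSeq (GRCr8).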

Additional observations from a re-analysis of the deposited data

How the results depend on the processing

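The direction of 9 of the 10 genes was the same under all alternatives run. Casp4 reversed to 0.14 under library totals, where the median of all genes was 0.46, against 0.016 with TMM. Ripk3 passed the limits with no filter (1.96), with at least 10 counts in every heart (1.96), with DESeq2 (1.95) and with limma-voom (3.42). It did not pass with DESeq2 size factors, with TMM without mitochondrial genes or with library totals. Limma-voom also gave calls to Casp1 (1.163), Gsdmd (1.05) and Aim2 (2.97). The filter of at least 10 counts in every heart left out Aim2 and Nlrc4. The count of genes past the limits and higher was 8 with limma-voom, where 26.8% of all genes were, and 0 when the adjusted p-value replaced the unadjusted one. Leaving out 1 heart at a time gave counts from 1 to 8, the highest without young animal 15 and 1 without young animal 3 and without aged animal 3, and 0 lower in each. Genes whose aged donor hearts all lay above all young ones numbered 4 to 9 in those fits, with 9 in the fit without young animal 15. Groups lie apart more easily with 1 heart fewer, and the share of all genes was not counted in those fits. The log2 fold changes ran from 1.501 to 3.25 for Nlrp3, 0.84 to 1.72 for Pycard, 0.42 to 1.46 for Casp1, -0.61 to -0.053 for Casp4, 0.52 to 1.299 for Gsdmd, 1.17 to 3.09 for Aim2, 2.09 to 3.99 for Nlrc4, 0.70 to 1.12 for Ripk1, 1.53 to 3.61 for Ripk3 and 0.0081 to 0.61 for Mlkl.

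In the wider lists, library totals gave 5 higher and 0 lower sensors, 0 lower pyroptosis genes, 3 higher and 1 lower necroptosis ligands and receptors, and 11 higher and 0 lower brakes and kinases. DESeq2 size factors gave 3 higher brakes and kinases. Of all genes tested, 22.8% were higher with library totals and 12.9% with DESeq2 size factors, against 13.2% in the main fit. Leaving out 1 heart gave 2 to 5 higher and 0 to 2 lower sensors, 2 to 5 higher and 0 to 1 lower pyroptosis genes, 0 to 5 higher and 2 to 3 lower ligands and receptors, and 2 to 10 higher and 1 to 4 lower brakes and kinases. The highest counts of higher genes came without young animal 15, where 26.9% of all genes were higher, against 5.83% to 9.97% without another heart. List counts thus moved along with the share over all genes, and shares of lower genes are not given for these fits. The log2 ratio differences ran from 0.89 to 1.51 for Nlrp3/Pycard, -1.98 to -0.97 for Casp4/Casp1, -0.32 to 0.12 for Gsdmd/Casp1 (0.12 without aged animal 3 and 0.066 without aged animal 7), 1.29 to 2.48 for Ripk3/Ripk1 and -3.01 to -1.87 for Mlkl/Ripk3. The cause of these shifts was not tested. No paired analysis was possible because the groups share only the animal number 3, which names different rats. With 3 hearts a group, no exact permutation p can be below 0.1, and low counts of Aim2 and Nlrc4 in young donor hearts limit their fold changes.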
